A study of Mus musculus with 16 samples.

Results

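The genes described here are 31 genes of a growth programme: the transcription factor Myc, 22 genes for nucleolar proteins that make ribosomes, 4 genes of polyamine and nucleotide synthesis, 3 genes of amino acid and iron uptake, and Eif4a1, an RNA helicase of translation initiation. They were taken from a count table of mouse natural killer (NK) cells by exact match of the gene symbol, which found all 31 among 49671 genes, and all 31 passed the filter on low counts that left 13940 genes for testing. RNA was sequenced in 16 libraries of NK cells, sorted as live CD45+ CD3- NKp46+ DX5+ cells, in 4 groups of 4: lung NK cells of mice given diphtheria toxin (lung DT), lung NK cells of mice given phosphate-buffered saline (lung PBS), and NK cells of the axillary tumour-draining lymph node of mice given DT (LN DT) or PBS (LN PBS). Every mouse had the genotype Cdh1F/F;Trp53F/F;Foxp3GFP-DTR on an FVB/N background, so that cells expressing Foxp3 carried the receptor for the toxin. Every mouse also bore a mammary tumour of 100 mm2, grown from an orthotopic KEP tumour transplant. The toxin dose was 25 µg, given at T = 0 and T = 7, for which the labels name no time unit. No group received the toxin without carrying the receptor, so effects of the toxin itself and of losing Foxp3-expressing cells cannot be told apart. The lungs were digested with Liberase and the nodes have no such step in the labels, so organ and preparation cannot be told apart either.

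MYC is a transcription factor that binds DNA as a pair with MAX, with the sequence CACGTG (the E-box) as its best known site, and MXD proteins compete for the same partner and the same site. In lymphocytes that grow before dividing, MYC is known to raise ribosome production, polyamine synthesis and the uptake of amino acids and iron. Ribosome production starts in the nucleolus, where RNA polymerase I transcribes ribosomal RNA, small nucleolar RNPs modify it, and separate sets of factors assemble the small and the large subunit. NK cells are known to raise Myc and the amino acid transporter SLC7A5–SLC3A2 when cytokines activate them.

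Because the module is named for MYC, the letters CACGTG were looked for in RefSeq promoters of GRCm38.p6 that span 250 bases before to 50 bases after a start site. A promoter was listed for 24 of the 31 genes, and Myc, Npm1, Fbl, Rrp12, Bop1, Srm and Slc7a5 had no entry in the table used. The motif reads the same on both strands. It stood in a promoter of 7 of the 24 genes (29.2%), against 7.15% of all 32851 promoters and 8.91% of protein-coding genes in that table. The windows around those matches, at most 30 bases each and written 5′ to 3′ on the gene's strand, are shown with the match in capitals so that the flanks can be compared. Nme1 has 2 listed start sites with a match.
Eif4a1 (chr11:69672595-69672624, minus strand): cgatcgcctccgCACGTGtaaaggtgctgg
Mybbp1a (chr11:72441355-72441376, plus strand): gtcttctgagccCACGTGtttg
Nme1 (chr11:93968037-93968066, minus strand): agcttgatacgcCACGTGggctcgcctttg
Nme1 (chr11:93968273-93968302, minus strand): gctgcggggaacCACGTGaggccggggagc
Nop2 (chr6:125131811-125131840, plus strand): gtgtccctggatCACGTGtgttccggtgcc
Pes1 (chr11:3963965-3963994, plus strand): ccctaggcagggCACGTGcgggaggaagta
Utp20 (chr10:88826765-88826789, minus strand): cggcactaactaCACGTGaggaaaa
Wdr43 (chr17:71616220-71616249, plus strand): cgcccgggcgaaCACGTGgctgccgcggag

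Among the 6 genes that differed between the organs below, Myc had no promoter entry and was not searched. Of the others, Eif4a1 was the only gene with a match (at -189 from its start site). The 250 bases before the start sites of Eif4a1 and of Slc3a2, which has none in its promoter window, are given for comparison, again with the match in capitals. A match describes the letters only and says nothing of binding in these cells.
Eif4a1 (chr11:69672424-69672673, minus strand): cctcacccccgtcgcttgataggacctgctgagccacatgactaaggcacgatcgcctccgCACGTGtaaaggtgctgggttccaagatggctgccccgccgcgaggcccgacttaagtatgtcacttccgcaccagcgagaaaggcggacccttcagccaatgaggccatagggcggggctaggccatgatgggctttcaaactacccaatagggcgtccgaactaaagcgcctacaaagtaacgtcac
Slc3a2 (chr19:8713898-8714147, minus strand): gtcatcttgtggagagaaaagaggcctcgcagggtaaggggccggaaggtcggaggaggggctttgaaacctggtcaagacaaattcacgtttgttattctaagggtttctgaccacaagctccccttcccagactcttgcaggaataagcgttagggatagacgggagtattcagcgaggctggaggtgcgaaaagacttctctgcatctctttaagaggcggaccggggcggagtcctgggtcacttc

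Total counts lay between 3929560 and 10744934 per library, and no pair of libraries held identical values. The NK markers of the sort were present in every library: Ncr1, which encodes NKp46, had 2457 CPM (counts scaled to a common library size, with TMM factors) or more, and Itga2, which encodes DX5, had 62.9 CPM or more. A set of 7 T cell genes summed to between 37.7 and 76.9 CPM in lung libraries except lung DT 1, which had 426 CPM, and to between 265 and 484 CPM in LN libraries. Cd3d and Cd3g made up most of it, and Foxp3 was at 1.2 CPM or less throughout. A set of 8 B cell genes varied between 195 and 9017 CPM among lung libraries and between 287 and 2276 CPM among LN libraries. Lung DT 1 and LN DT 1 stood apart from the rest in the nuclear RNA Malat1, with 17164 and 18216 CPM against 8511 CPM or less in the other 14 libraries. Values of single genes that leaving out lung DT 1 or LN DT 1 moved by over 1.5 times are given with and without that library.

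**Figure D1:**
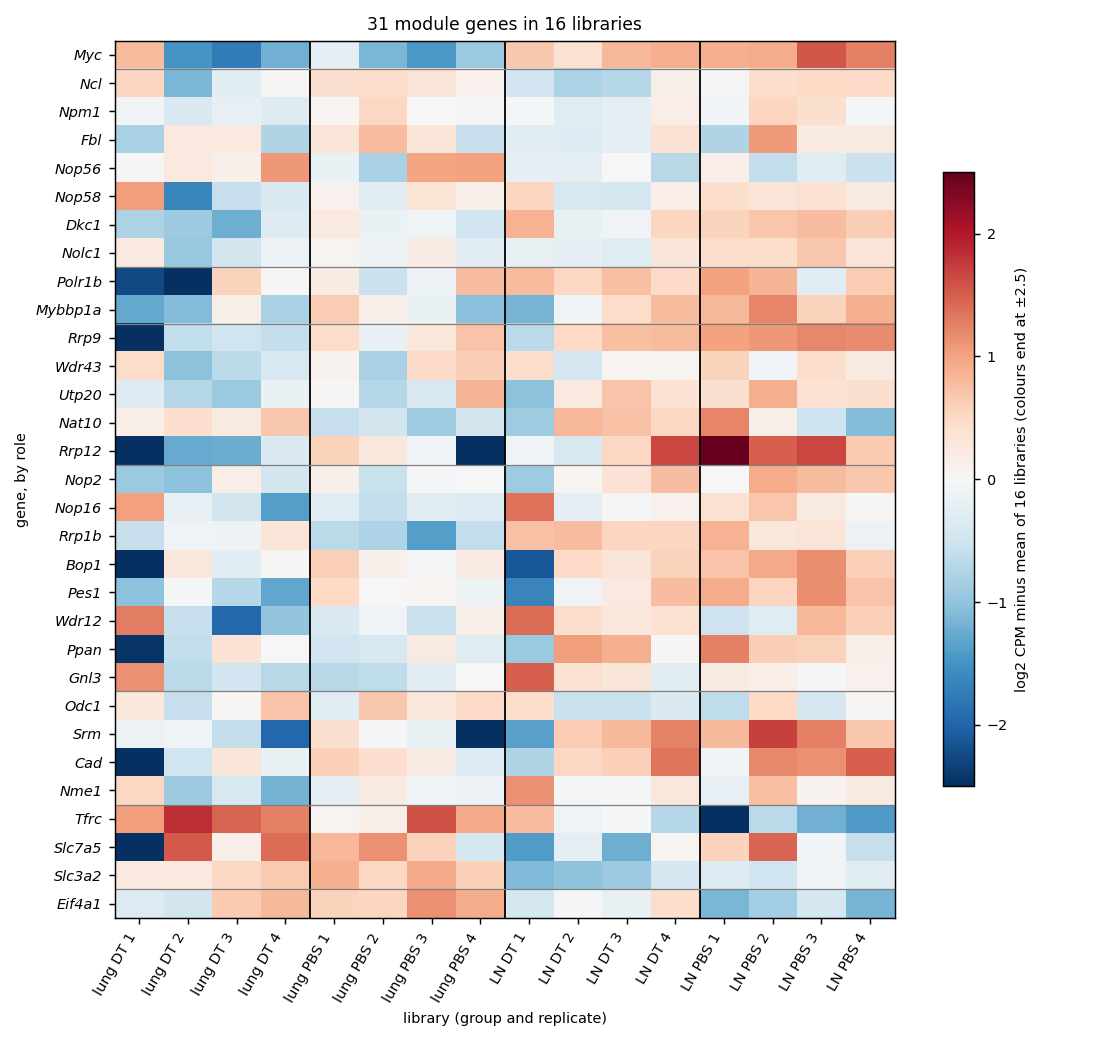
Levels of the 31 genes (rows, grouped by role) in the 16 libraries (columns), as log2 CPM minus each gene's mean over all libraries, with colours ending at ±2.5. Myc is blue in the lung columns except lung DT 1 and red in the LN columns, while Slc3a2 is red in all lung columns and blue in all LN columns.

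Lung NK cells had less Myc and more of 2 uptake genes than LN NK cells when mice had received PBS. Of the 31 genes, 3 were higher and 2 were lower in lung PBS than in LN PBS at a Benjamini-Hochberg adjusted p under 0.05 in edgeR's quasi-likelihood test over all 13940 genes, where 2.7% of all genes tested were higher and 0.904% were lower. Myc and Rrp1b fell, and Slc3a2, Tfrc and Eif4a1 rose. Of the 31, 25 had a log2 fold change below 0 and 6 above 0, where 50.7% and 49.3% of all genes did. Their median was -0.50, against -0.012 over all genes tested. At an unadjusted p under 0.05, 3 were higher and 5 were lower, where 10.3% and 6.54% of all genes were. In these bulk samples, fewer cells with a transcript and less of it per cell cannot be told apart.

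In replicate order, Myc measured 139.7, 28.9, 23.7 and 34.7 CPM in lung DT and 68.1, 36.4, 29.6 and 42.1 CPM in lung PBS, with 128, 105, 144 and 151 CPM in LN DT and 149, 153, 236 and 193 CPM in LN PBS. Apart from lung DT 1, every lung library was below every LN library, and lung DT 1 lay among the LN DT libraries. In PBS mice the 2 groups did not overlap, and the log2 fold change of lung over LN was -2.05 ± 0.47 (SE; adjusted p = 0.0181). The call was lost without lung PBS replicate 2, 3 or 4 or LN PBS replicate 3 or 4, where the adjusted p reached at most 0.0752. Over all single libraries left out, the log2 fold change lay between -2.34 (without lung PBS replicate 1, where the call held) and -1.86. The T cell gene sum moved with Myc, at 37.7 to 76.9 CPM in lung PBS and 356 to 434 CPM in LN PBS. Lung DT 1, with Myc at 139.7 CPM, had a T cell gene sum of 426 CPM. Lung DT 2, 3 and 4 had 59.7 to 75.3 CPM, and LN DT libraries had 265 to 484 CPM. The part of the T cell genes in the Myc differences was not tested.

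Slc3a2 encodes the heavy chain of CD98, which carries SLC7A5 and other amino acid transporters to the cell surface. Slc3a2 had 392, 393, 473 and 521 CPM in lung DT libraries 1 to 4 and 614, 475, 635 and 499.5 CPM in lung PBS libraries, against 153, 163, 175 and 243 CPM in LN DT and 262, 233, 309 and 275 CPM in LN PBS libraries. The lowest lung library lay above the highest LN library. Lung over LN gave a log2 fold change of 1.28 ± 0.22 (SE; adjusted p = 0.00224) in DT mice and 1.04 ± 0.22 (SE; adjusted p = 0.0104) in PBS mice, and both calls held in all 25 alternative analyses. Its partner Slc7a5 was scarce in every group. In replicate order, Slc7a5 measured 0, 9.64, 3.46 and 8.64 CPM in lung DT and 5.76, 7.22, 4.83 and 2.23 CPM in lung PBS, with 1.03, 2.64, 1.2 and 3.3 CPM in LN DT and 4.73, 9.09, 2.97 and 2.04 CPM in LN PBS. These groups overlapped, and the log2 fold change of 1.40 ± 0.97 (SE; adjusted p = 0.458) in DT mice and 0.08 ± 0.95 (SE; adjusted p = 0.981) in PBS mice came with a wide error. In PBS mice the value lay between -0.16 (without LN PBS replicate 4) and 0.62 (without LN PBS replicate 2) as single libraries were left out.

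Tfrc encodes the transferrin receptor, through which cells take up iron. Tfrc had 78.9, 137, 105 and 91 CPM in lung DT libraries 1 to 4 and 39.7, 42.2, 115 and 73.5 CPM in lung PBS libraries, against 64.6, 35.1, 36.8 and 23 CPM in LN DT and 0.946, 23.6, 16.4 and 14.1 CPM in LN PBS libraries. All 8 lung libraries were above all LN PBS libraries, and LN DT 1 was the only LN library inside the lung range. The log2 fold change of lung over LN was 1.37 ± 0.58 (SE; adjusted p = 0.181) in DT mice and 2.30 ± 0.60 (SE; adjusted p = 0.0419) in PBS mice. In PBS mice the call was lost in 11 of 25 alternatives, among them without lung DT replicate 3, lung PBS replicate 2, 3 or 4, LN DT replicate 2 or 3 or LN PBS replicate 3 or 4, with an adjusted p of at most 0.12, and the log2 fold change lay between 1.91 and 2.69 as single libraries were left out.

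Eif4a1 encodes the helicase subunit of the eIF4F complex, which loads ribosomes onto capped mRNA. In replicate order, Eif4a1 measured 211, 193, 416 and 466 CPM in lung DT and 390.0, 387, 587 and 503 CPM in lung PBS, with 197, 261, 233 and 359 CPM in LN DT and 121, 147, 197 and 118 CPM in LN PBS. Lung DT and LN DT libraries overlapped, whereas lung PBS libraries were all above LN PBS libraries. On the log2 scale lung over LN was 0.29 ± 0.31 (SE; adjusted p = 0.659) in DT mice and 1.68 ± 0.31 (SE; adjusted p = 0.00507) in PBS mice, the last a call that held in all 25 alternatives. Leaving out single libraries moved the value in DT mice to between 0.07 (without lung DT replicate 4) and 0.48 (without lung DT replicate 1); without LN DT replicate 1 it was 0.19. Its exons share 3.3% of their bases with each of 2 snoRNA genes on the same strand, and closely related copies of Eif4a1 exist in the genome, so its counts are uncertain to that extent.

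A set of 8 myeloid genes, led by Lyz2, was also higher in many lung libraries, at 135 to 3895 CPM in lung DT and 307 to 2667 CPM in lung PBS, against 111 to 242 CPM in LN DT and 34.5 to 315 CPM in LN PBS. S100a8, a gene of neutrophils and monocytes, had 3.54 to 170 CPM in lung DT and 9.73 to 56.3 CPM in lung PBS, against 0.44 to 2.89 CPM in LN DT and 0 to 5.45 CPM in LN PBS. Ly6g, the granulocyte marker of that set, was at 0.6 CPM or less in all 16 libraries. The part of myeloid transcripts in the lung–LN differences was not tested.

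**Figure D2:**
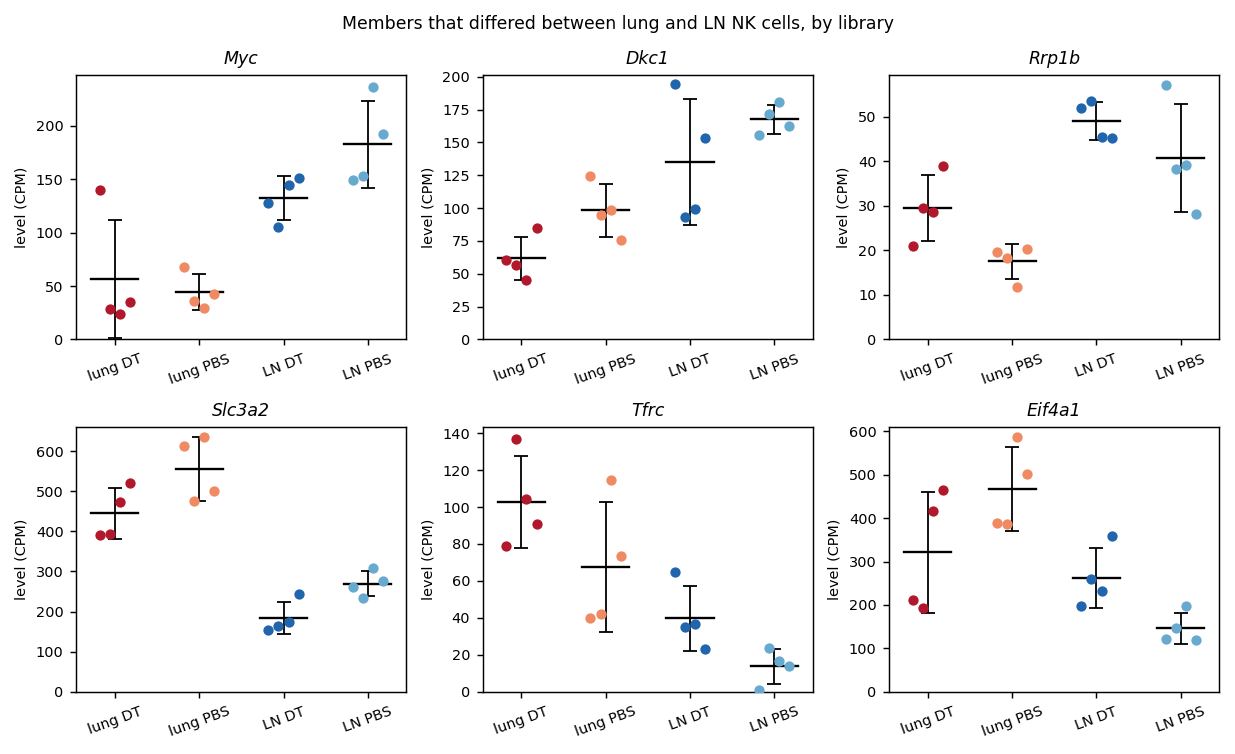
Level in CPM (vertical axis, from 0) of the 6 genes that differed between lung and LN in at least 1 comparison, in each library (points), with the mean (bar) and SD (whiskers) of the 4 libraries of a group. Slc3a2 does not overlap between lung and LN in either treatment, and lung DT 1 is the lung point of Myc at 139.7 CPM.

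Most nucleolar genes had a log2 fold change below 0 in lung, and few passed the test. Among 7 snoRNP and nucleolar genes 6 were below 0 in PBS mice, both genes of ribosomal RNA transcription were (Polr1b, a core subunit of RNA polymerase I, and Mybbp1a), and so were all 5 genes of small-subunit processing and all 8 of large-subunit assembly. Only Rrp1b, a nucleolar protein of the large-subunit pathway, was called among these 22 genes. Rrp1b had 20.9, 29.6, 28.7 and 38.9 CPM in lung DT libraries 1 to 4 and 19.6, 18.3, 11.8 and 20.4 CPM in lung PBS libraries, against 51.9, 53.6, 45.5 and 45.2 CPM in LN DT and 57.2, 38.3, 39.2 and 28.2 CPM in LN PBS libraries. Lung DT libraries were all below LN DT libraries, and lung PBS libraries were all below LN PBS libraries, with log2 fold changes of -0.73 ± 0.30 (SE; adjusted p = 0.155) in DT mice and -1.22 ± 0.30 (SE; adjusted p = 0.0287) in PBS mice. The PBS call was lost in 8 of 25 alternatives, among them without any single lung PBS library or LN PBS replicate 1, 2 or 3, with an adjusted p of at most 0.121.

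Dkc1, the pseudouridine synthase of box H/ACA small nucleolar RNPs, was lower in lung DT. In replicate order, Dkc1 measured 60.8, 56.6, 45.4 and 84.6 CPM in lung DT and 125, 94.6, 98.7 and 75.3 CPM in lung PBS, with 194, 93.5, 99 and 153 CPM in LN DT and 156, 171, 181 and 163 CPM in LN PBS. Lung and LN libraries did not overlap in either treatment, and the lowest level of all was that of lung DT 3. The log2 fold change was -1.12 ± 0.27 (SE; adjusted p = 0.0181) in DT mice and -0.77 ± 0.27 (SE; adjusted p = 0.13) in PBS mice. Without lung DT replicate 3 or LN DT replicate 1 the DT call was lost, with an adjusted p of at most 0.0648.

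Counting genes whose 4 lung libraries were all on 1 side of the 4 LN libraries, 3 were higher in lung PBS (Slc3a2, Tfrc and Eif4a1), and 10 were lower, where 9.25% and 9.91% of all genes were. The 10 were Myc, Dkc1, Nolc1 (a snoRNP chaperone), Rrp9 (a protein of the U3 snoRNP), Nop16, Rrp1b, Bop1 and Pes1 (partners in the PeBoW complex of the large subunit), Rrp12 and Srm (spermidine synthase). In DT mice the count was 3 higher (Nop56, Slc3a2 and Tfrc) and 2 lower (Dkc1 and Rrp1b), where 5.57% and 6.08% of all genes were.

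In DT mice, Slc3a2 was higher and Dkc1 was lower in lung DT than in LN DT, 2 of the 31 genes, where 3.97% of all genes were higher and 2.78% were lower. The log2 fold change was below 0 for 24 genes and above 0 for 7, where 52.2% and 47.8% of all genes were, with a median of -0.57, against -0.041 over all genes. At an unadjusted p under 0.05, 2 were higher and 6 were lower, where 10.8% and 10.1% of all genes were. Myc had a log2 fold change of -1.22 ± 0.45 (SE; adjusted p = 0.121), with lung DT 1 inside the range of LN DT. Lung DT 1 also had the highest T cell gene sum of the lung libraries (426 CPM), and the part of this was not tested. Without lung DT replicate 1, Myc had a log2 fold change of -2.15, adjusted p = 0.000432, and 6 genes were called (1 higher, 5 lower), where 5.88% of all genes were higher and 4.86% were lower. Without both DT libraries numbered 1, Myc had a log2 fold change of -2.21, adjusted p = 0.000515, and 7 were called: Slc3a2 higher, and Myc, Dkc1, Rrp9, Wdr12, Gnl3 and Nme1 lower, where 5% of all genes were higher and 4.67% were lower.

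Lung DT and LN DT libraries of the same number had correlated deviations from their group means. Libraries of different number reached 0.229, near the 0.184 to 0.230 of numbers 2, 3 and 4 but below the 0.412 of number 1. Whether the numbers pair animals is therefore uncertain. The analysis with the replicate number within treatment as a block is given as an alternative. With this block 5.03% of all genes were higher and 5.16% were lower in lung DT, and 5 genes of the 31 were called: Slc3a2 was higher, with a log2 fold change of 1.29, adjusted p = 0.000313, and 4 were lower. The 4 were Myc (-1.64, adjusted p = 0.0334), Dkc1 (-1.09, adjusted p = 0.00761), Rrp9 (-1.87, adjusted p = 0.0371) and Nme1, a nucleoside diphosphate kinase (-0.84, adjusted p = 0.0197).

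**Figure D3:**
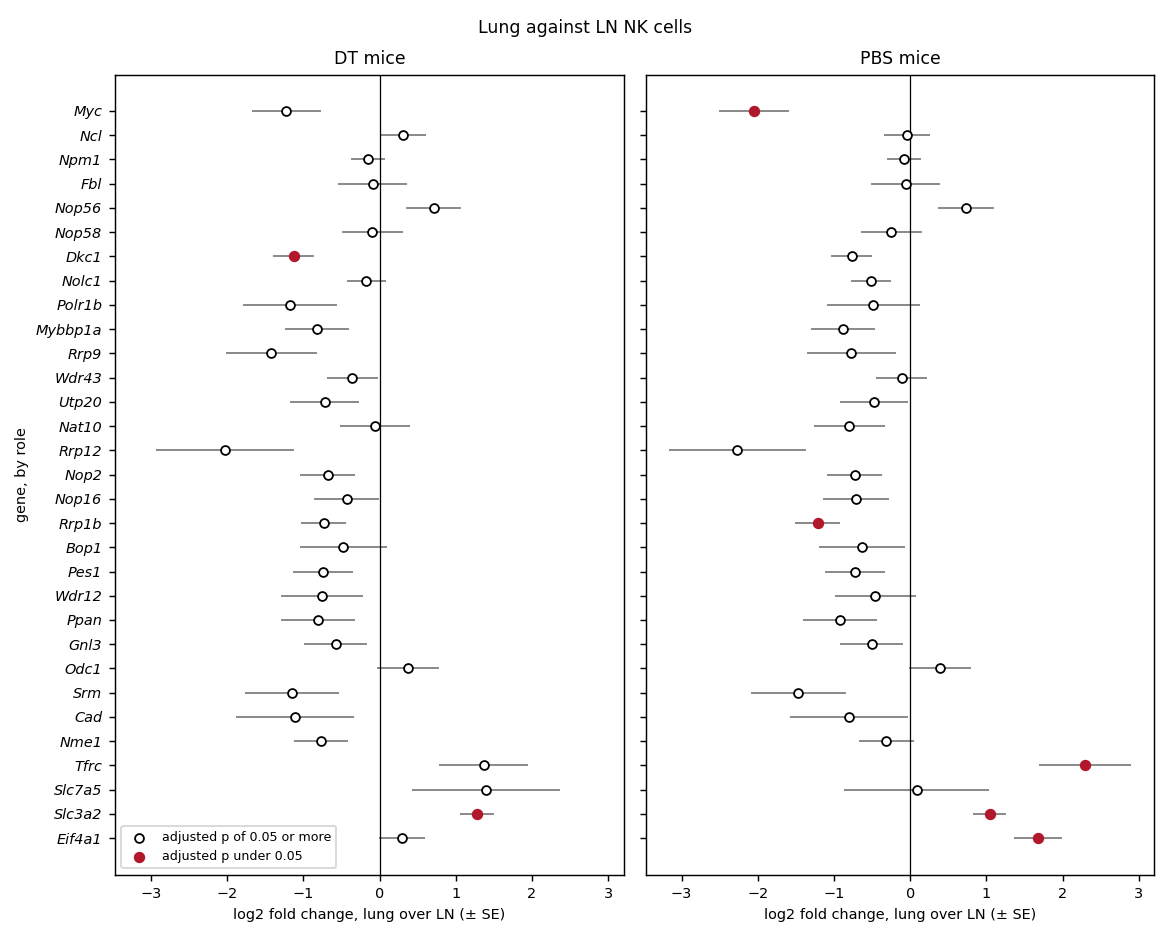
Log2 fold change of lung over LN (horizontal axis, with SE bars) for the 31 genes by role (vertical axis), in DT mice (left) and PBS mice (right), with filled points for an adjusted p under 0.05. The nucleolar genes lie mostly left of 0 in both panels, and Slc3a2 is filled in both.

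The lung–LN difference was not shown to differ between DT and PBS mice for any of the 31 genes. This was tested as the DT effect in LN minus the DT effect in lung, in which 0 genes of the 31 were called and 0.00717% of all genes were. At an unadjusted p under 0.05, 1 gene of the 31 was higher and 0 were lower, where 2.88% and 1.33% of all genes were: Eif4a1, with a log2 value of 1.39 ± 0.43 (SE; adjusted p = 0.839) and an unadjusted p of 0.0052. Myc, at -0.83 ± 0.63 (SE; adjusted p = 1.00), followed; the value became 0.13 without lung DT replicate 1. The third was Rrp1b, at -0.48 ± 0.42 (SE; adjusted p = 1.00), which became -0.26 without LN PBS replicate 1.

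Genes of the same pathways outside the module, 142 in 8 lists of which 140 could be tested, gave the wider picture. Of the MYC network list, 12 could be tested. In DT mice 2 were higher and 0 lower in lung, where 3.97% and 2.78% of all genes were. In PBS mice 3 were higher and 0 lower, where 2.7% and 0.904% of all genes were. Mxd1 had 578, 788, 715 and 1124 CPM in lung DT libraries 1 to 4 and 678, 539, 723 and 558 CPM in lung PBS libraries, against 201, 169, 177 and 231 CPM in LN DT and 276, 189, 169 and 135 CPM in LN PBS libraries. Mxd1 encodes a MAX partner that competes with MYC. Lung libraries lay above LN libraries throughout, with a log2 fold change of 2.04 ± 0.27 (SE; adjusted p = 0.000218) in DT mice and 1.70 ± 0.27 (SE; adjusted p = 0.00118) in PBS mice. In replicate order, Mxi1 measured 45.3, 27.2, 47.6 and 41.3 CPM in lung DT and 19.2, 21.6, 28.2 and 36.9 CPM in lung PBS, with 10.1, 2.64, 5.05 and 4.07 CPM in LN DT and 4, 2.91, 4.34 and 8.03 CPM in LN PBS. Mxi1 encodes another such competitor, and its log2 fold change was 2.89 ± 0.47 (SE; adjusted p = 0.00149) in DT mice and 2.45 ± 0.47 (SE; adjusted p = 0.00548) in PBS mice. Max had 6.03, 10.9, 20.6 and 47 CPM in lung DT libraries 1 to 4 and 104, 97.1, 56.7 and 58.8 CPM in lung PBS libraries, against 16.8, 41.5, 29.5 and 59.3 CPM in LN DT and 5.05, 21.8, 23.3 and 7.81 CPM in LN PBS libraries. Max encodes the shared partner; its log2 fold change of lung over LN was 2.45 ± 0.61 (SE; adjusted p = 0.0309) in PBS mice, while lung DT and LN DT overlapped. The calls of Mxd1 and Mxi1 held in all 25 alternatives in both treatments, and that of Max was lost in 4 (without lung PBS replicate 1 or 2 or LN PBS replicate 1 or 4).

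**Figure D4:**
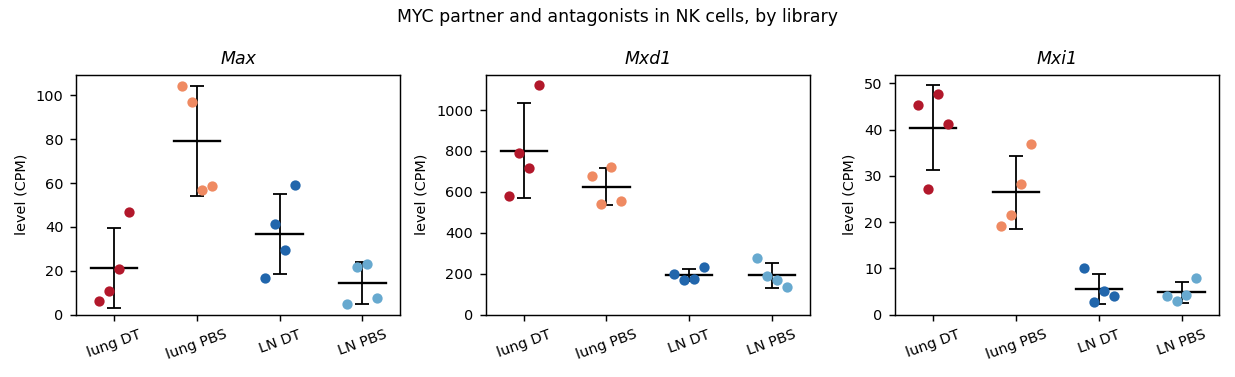
Level in CPM (vertical axis, from 0) of the MYC partner Max and the competitors Mxd1 and Mxi1 in each library (points), with the mean (bar) and SD (whiskers) of the 4 libraries of a group. All 8 lung libraries lie above all 8 LN libraries for Mxd1 and Mxi1, and Max has its highest mean in lung PBS.

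The nutrient and iron list held 18 genes, of which 2 were higher and 0 lower in lung in each treatment. Of all genes, 3.97% were higher and 2.78% lower in DT mice, and 2.7% and 0.904% in PBS mice. In replicate order, Slc38a2 measured 991, 552, 685 and 635 CPM in lung DT and 471, 729, 665 and 558 CPM in lung PBS, with 223, 209.8, 152 and 161 CPM in LN DT and 167, 204, 119 and 125 CPM in LN PBS. Slc38a2, a transporter of glutamine and other neutral amino acids, was higher in all lung libraries than in all LN libraries, with a log2 fold change of 1.94 ± 0.26 (SE; adjusted p = 0.000302) in DT mice and 1.98 ± 0.26 (SE; adjusted p = 0.00026) in PBS mice. Ftl1, the light chain of the iron store ferritin, averaged 786 ± 268 CPM in lung DT and 256 ± 38.7 CPM in LN DT, and 679 ± 95.3 CPM in lung PBS and 341 ± 53.7 CPM in LN PBS (SD, n = 4 each). Its log2 fold change was 1.62 ± 0.27 (SE; adjusted p = 0.00159) in DT mice, and 0.99 ± 0.26 (SE; adjusted p = 0.0441) in PBS mice, the last a call lost in 13 of 25 alternatives, among them without any single lung PBS or LN PBS library. Lyz2 and the other myeloid genes moved with lung too, as given above, and their part in the Ftl1 difference was not tested.

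Of 11 polyamine genes, 2 were higher and 0 lower in lung in DT mice, where 3.97% and 2.78% of all genes were. In PBS mice 1 was higher and 0 lower, where 2.7% and 0.904% of all genes were. Azin1, which protects ornithine decarboxylase from breakdown, averaged 219.8 ± 46.7 CPM in lung DT and 110.2 ± 26.7 CPM in LN DT (log2 fold change 1.00 ± 0.22, adjusted p = 0.0126), and 182 ± 11.8 CPM in lung PBS and 103 ± 9.98 CPM in LN PBS (log2 fold change 0.82 ± 0.22, adjusted p = 0.04996). Amd1, S-adenosylmethionine decarboxylase, had a log2 fold change of 1.67 ± 0.47 (SE; adjusted p = 0.0397) in DT mice. The Azin1 call was lost in 15 of 25 alternatives in PBS mice, among them leaving out any single lung PBS or LN PBS library, with an adjusted p of at most 0.146. In DT mice it was lost in 1 (without LN DT replicate 2) and that of Amd1 in 7 (among them without lung DT replicate 1 and without LN DT replicate 2, 3 or 4), with an adjusted p of at most 0.125. The module's own polyamine gene Odc1, ornithine decarboxylase, was not called in any comparison. Odc1 had 21.7, 12, 18.4 and 29.6 CPM in lung DT libraries 1 to 4 and 14.5, 28.9, 22 and 25.3 CPM in lung PBS libraries, against 24.7, 12.3, 12.2 and 14 CPM in LN DT and 11.6, 25.7, 13.5 and 18.6 CPM in LN PBS libraries. Its libraries overlapped between all groups, with a log2 fold change of lung over LN of 0.37 ± 0.41 (SE; adjusted p = 0.673) in DT mice and 0.39 ± 0.41 (SE; adjusted p = 0.721) in PBS mice. As single libraries were left out it lay between 0.16 (without lung DT replicate 4) and 0.69 (without LN DT replicate 1) in DT mice, and between 0.23 (without LN PBS replicate 1) and 0.64 (without LN PBS replicate 2) in PBS mice.

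In DT mice the genes called in the ribosome assembly lists were lower in lung. Of 27 genes of the small subunit and snoRNPs, 3 were lower and 0 higher in lung DT than in LN DT, and of 24 of large-subunit assembly, 3 were lower and 0 higher, where 2.78% of all genes were lower and 3.97% were higher. They were Wdr75 (-1.65 ± 0.37, adjusted p = 0.0123), Mphosph10 (-1.11 ± 0.26, adjusted p = 0.0139) and Rcl1 (-1.34 ± 0.38, adjusted p = 0.0418), and Rrp15 (-1.65 ± 0.34, adjusted p = 0.00816), Ddx18 (-1.21 ± 0.27, adjusted p = 0.0114) and Nle1 (-1.86 ± 0.53, adjusted p = 0.0427), each with its log2 fold change ± SE. The calls of Nle1 and Rcl1 were lost in 17 and 15 of 25 alternatives, among them leaving out 14 and 13 of the 16 libraries singly, with adjusted p values of at most 0.144 and 0.122, while those of Wdr75 and Mphosph10 held in all 25 and those of Rrp15 and Ddx18 in 24 each. In PBS mice 0 of either list were called, where 0.904% of all genes were lower and 2.7% were higher. At an unadjusted p under 0.05, 4 and 6 were lower, where 6.54% of all genes were. Among 15 nucleotide synthesis genes, Impdh2 was higher in lung DT (1.02 ± 0.26, adjusted p = 0.026) and Adsl was lower (-1.18 ± 0.31, adjusted p = 0.0284); both make purines. Their calls were lost in 3 and 4 of 25 alternatives: that of Impdh2 without LN DT replicate 1 or 3, or with no filter on low counts, and that of Adsl without lung DT replicate 4 or LN DT replicate 2, 3 or 4. Of the 14 RNA polymerase I genes and the 19 genes of eIF4F and mTORC1, 0 were called between organs in either treatment.

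Turning to the toxin, 0 of the 31 genes passed the test between DT and PBS in either organ, by edgeR's quasi-likelihood test. In LN, 0.0646% of all genes were higher in LN DT and 0% were lower; in lung, 0.0574% were higher in lung DT and 0.0502% were lower. At an unadjusted p under 0.05, 2 of the 31 were higher and 3 were lower in LN DT, where 8.29% and 3.52% of all genes were, and 1 was higher and 2 were lower in lung DT, where 7.66% and 7.06% of all genes were. By DESeq2's Wald test 0 of the 31 were called in either organ, where 1.89% of all genes were higher and 0.445% were lower in LN DT, and 1.97% were higher and 1.3% were lower in lung DT. By limma-voom with sample quality weights 3 of the 31 were higher and 7 were lower in LN DT, where 14.9% and 11.9% of all genes were. In lung it called 0 of the 31, where 1.8% of all genes were higher and 1.32% were lower. In LN, 21 of the 31 had a log2 fold change below 0 and 10 above 0, where 45.1% and 54.6% of all genes did, and their median was -0.32, against 0.081 over all genes. In lung, 23 were below 0 and 8 above 0, where 45.5% and 54.5% of all genes were, and their median was -0.32, against 0.089 over all genes.

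In LN, the smallest p among the 31 was that of Eif4a1, whose libraries are given above. It had 262 ± 69.4 CPM in LN DT and 146 ± 36.6 CPM in LN PBS (SD, n = 4 each), with LN DT 1 just below the highest LN PBS library, and a log2 fold change of DT over PBS of 0.85 ± 0.31 (SE; adjusted p = 0.282). Tfrc averaged 39.9 ± 17.6 CPM in LN DT and 13.8 ± 9.46 CPM in LN PBS, with a log2 fold change of 1.53 ± 0.59 (SE; adjusted p = 0.316). Slc3a2 averaged 184 ± 40.5 CPM in LN DT and 269.7 ± 31.7 CPM in LN PBS, with a log2 fold change of -0.55 ± 0.22 (SE; adjusted p = 0.322). For each of these 3 genes the groups overlapped by 1 library or more. Myc had a log2 fold change of -0.47 ± 0.45 (SE; adjusted p = 0.721), with 3 of 4 LN DT libraries below the lowest LN PBS library.

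In lung, the smallest p was that of Rrp1b, with 29.5 ± 7.35 CPM in lung DT and 17.5 ± 3.88 CPM in lung PBS (SD, n = 4 each). The lung DT libraries were all above the lung PBS libraries, and the log2 fold change was 0.75 ± 0.30 (SE; adjusted p = 0.263). Dkc1 averaged 61.9 ± 16.5 CPM in lung DT and 98.4 ± 20.4 CPM in lung PBS, with a log2 fold change of -0.67 ± 0.27 (SE; adjusted p = 0.272). In replicate order, Rrp9 measured 0.717, 26.9, 29.4 and 27.4 CPM in lung DT and 56.6, 36.9, 50.04 and 67.7 CPM in lung PBS, with 25.9, 58.1, 69.5 and 72 CPM in LN DT and 83.4, 88, 95.9 and 94 CPM in LN PBS. Rrp9 was lower in all lung DT than in all lung PBS libraries and lower in all LN DT than in all LN PBS libraries, with log2 fold changes of -1.32 ± 0.60 (SE; adjusted p = 0.317) in lung and -0.68 ± 0.58 (SE; adjusted p = 0.686) in LN. Lung DT 1, at 0.717 CPM, was far below the other lung DT libraries; without both DT libraries numbered 1 the lung value was -0.99, adjusted p = 0.0287.

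Genes whose DT and PBS libraries did not overlap were few. In LN these were 0 higher and 3 lower (Nolc1, Rrp9 and Bop1), where 5.05% and 3.42% of all genes were. In lung they were 2 higher (Nat10, which acetylates small-subunit ribosomal RNA, and Rrp1b) and 2 lower (Npm1 and Rrp9), where 3.35% and 4.53% of all genes were. Nat10 had 21.8, 26.2, 22.8 and 31.6 CPM in lung DT, against 13.1, 14.2, 10.5 and 14.2 CPM in lung PBS.

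Ncl and Npm1, the most abundant nucleolar proteins of many cells, did not pass the test for DT. Ncl had 473, 146, 269 and 331 CPM in lung DT libraries 1 to 4 and 431, 441, 407 and 350.3 CPM in lung PBS libraries, against 234, 188, 199 and 362 CPM in LN DT and 318, 442, 460.4 and 452 CPM in LN PBS libraries. Ncl encodes nucleolin, and 3 of 4 LN DT libraries were below all LN PBS libraries, with log2 fold changes of DT over PBS of -0.77 ± 0.31 (SE; adjusted p = 0.333) in LN and -0.42 ± 0.30 (SE; adjusted p = 0.538) in lung. The lung value of Ncl was -0.76 without lung DT replicate 1 and -0.20 without lung DT replicate 2. In replicate order, Npm1 measured 290.1, 234, 264 and 244 CPM in lung DT and 318, 433, 301 and 295 CPM in lung PBS, with 296, 246, 259 and 342 CPM in LN DT and 288, 439.9, 399 and 294 CPM in LN PBS. Npm1 encodes nucleophosmin, a histone and ribosome chaperone, and its lung DT libraries were all below its lung PBS libraries. Its log2 fold changes were -0.31 ± 0.22 (SE; adjusted p = 0.608) in LN, which became -0.19 without LN PBS replicate 2, and -0.38 ± 0.22 (SE; adjusted p = 0.429) in lung. Closely related copies of Npm1 exist in the genome, and how the counting treated them is not given in the sources used here.

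Averaged over both organs, which uses the same libraries again, 0 of the 31 genes were called, where 2.47% of all genes were higher in DT and 1.43% were lower. The labels do not state whether lung and LN libraries share mice, and this average takes each library as an animal. If they share mice, its SE and p-values may be too small. At an unadjusted p under 0.05, 2 were higher and 9 were lower, where 13.7% and 9.39% of all genes were. Of the 31, 23 lay below 0 and 8 above 0, where 44.7% and 55.3% of all genes did, with a median of -0.37, against 0.091 over all genes. The smallest p values were those of Pes1, Slc3a2 and Ncl. Pes1 had 24.8, 49.7, 30.9 and 20.4 CPM in lung DT libraries 1 to 4 and 72.2, 51.3, 52.5 and 46.5 CPM in lung PBS libraries, against 16.1, 48.1, 59.9 and 86.5 CPM in LN DT and 96.9, 74, 114 and 83.9 CPM in LN PBS libraries. Pes1, a core protein of large-subunit assembly, had overlapping DT and PBS libraries in both organs, and its averaged log2 fold change was -0.81 ± 0.28 (SE; adjusted p = 0.0949). Slc3a2 had -0.44 ± 0.15 (SE; adjusted p = 0.101) and Ncl had -0.59 ± 0.22 (SE; adjusted p = 0.112) on the same scale. With each library's mitochondrial share in the model, the averaged values were -0.013 for Pes1, -0.096 for Slc3a2 and -0.29 for Ncl. By DESeq2's Wald test 0 genes were higher and 1 was lower (Slc3a2), where 7.63% and 3.78% of all genes were. By limma-voom with sample quality weights 3 were higher and 9 were lower, where 14% and 13.1% of all genes were. Without both DT libraries numbered 1, 4 were lower (Ncl, Nop58, Dkc1 and Rrp9) and 0 higher, where 5.18% and 4.37% of all genes were. Leaving out LN DT replicate 4 gave 3 lower (Ncl, Pes1 and Slc3a2) and 0 higher, where 4.2% and 4.96% of all genes were, and leaving out lung DT replicate 1 gave 2 lower (Ncl and Rrp9) and 0 higher, where 3.59% and 3.47% were.

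**Figure D5:**
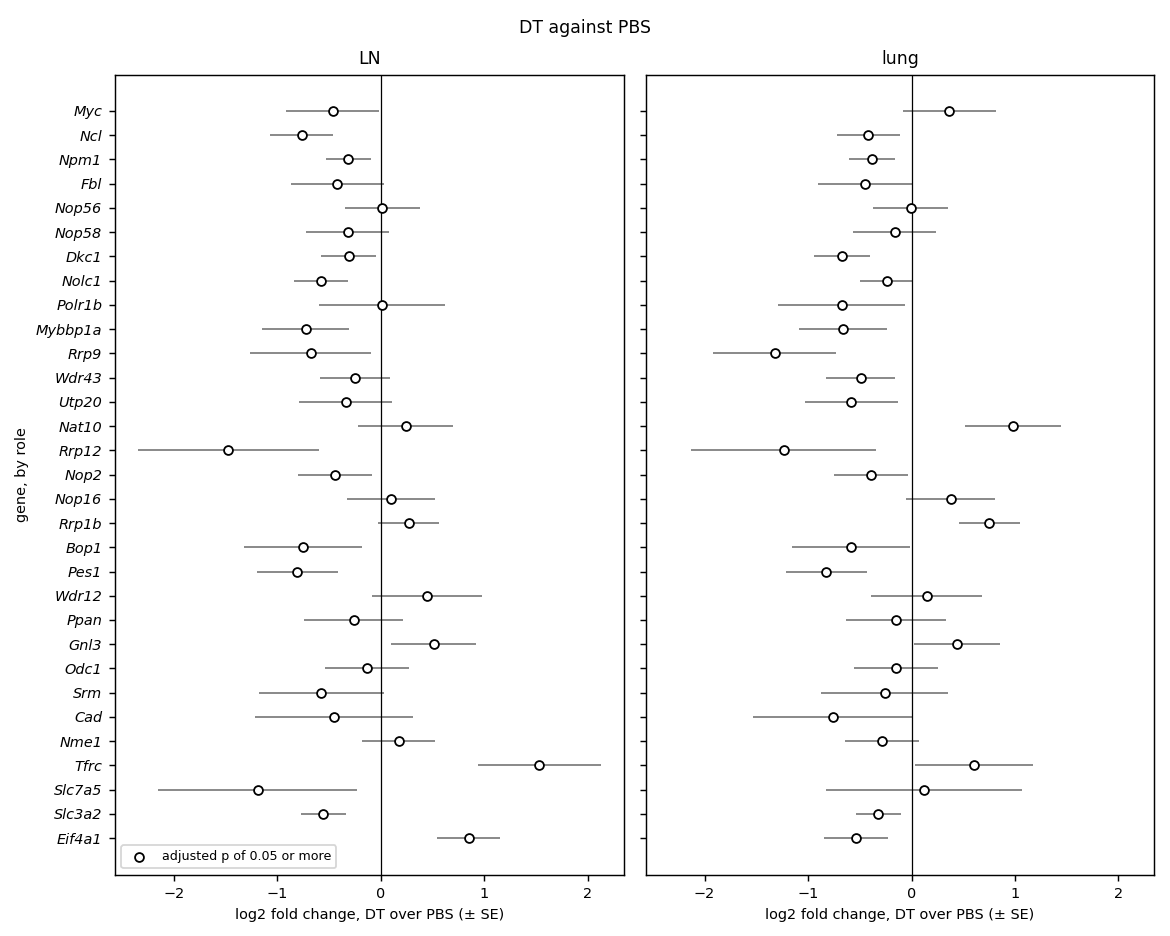
Log2 fold change of DT over PBS (horizontal axis, with SE bars) for the 31 genes by role (vertical axis), in LN (left) and in lung (right). No gene reaches an adjusted p under 0.05, and 21 genes in LN and 23 in lung lie left of 0.

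Other quantities moved with DT beside these values. Mitochondrial transcripts made up 3.11% to 4.4% of counts in lung DT and 0.951% to 2.57% in lung PBS, and 1.24% to 4.93% in LN DT and 1.05% to 1.68% in LN PBS. A set of 15 cell cycle genes summed to 515 to 1595 CPM in lung DT and 129 to 212 CPM in lung PBS, and to 223 to 481 CPM in LN DT and 81.9 to 183 CPM in LN PBS. A set of 6 plasma cell genes summed to 219 to 959 CPM in LN DT and 3.64 to 12.3 CPM in LN PBS, led by Ighg1 and Jchain, while it stayed at 27.8 CPM or less in lung. In LN, Ighg1, Jchain and Iglv1 did not overlap between DT and PBS, while Mzb1, Derl3 and Sdc1 did. Mzb1 had 6.60 to 67.5 CPM in LN DT and 2.18 to 8.71 CPM in LN PBS. Sdc1 had at most 1.68 CPM in LN DT and 2.97 CPM in LN PBS. Xist RNA had 732 to 1307 CPM in lung DT and 231 to 446 CPM in lung PBS. In LN, Xist had 468 to 1282 CPM with DT and 225 to 574 CPM with PBS. Malat1 had 6813 to 17164 CPM in lung DT and 2107 to 8511 CPM in lung PBS. In LN, Malat1 had 2284 to 18216 CPM with DT and 2197 to 2841 CPM with PBS. The part of the NK cell, cell cycle and plasma cell genes, Xist and Malat1 in the values of the 31 genes was not tested. With each library's mitochondrial share in the model, Tfrc in LN had a log2 fold change of DT over PBS of 0.81 and Slc3a2 in LN of -0.22, Rrp9 in LN of -0.25, and Ncl of -0.48 in LN and -0.093 in lung. Of the single-gene DT values given here, those of pathway genes outside the module included, that model moved 17 of 23 in LN, 9 of 21 in lung and 5 of 9 averaged ones by over 1.5 times, all but 1 of them towards 0 or past it. In lung the share did not overlap between DT and PBS, and in LN it overlapped only through LN DT 4 (1.24%). The model can therefore separate the share from DT only in part, and why the values moved was not tested.

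Of the 140 pathway genes outside the module that could be tested, 0 were called between DT and PBS in LN or in lung taken singly, and 1 was higher and 5 were lower on average over both, where 2.47% and 1.43% of all genes were. The averaged calls take each library as an animal, though lung and LN libraries may share mice, so their p-values may be too small. Of 24 large-subunit assembly genes, 3 were lower and 1 was higher. In replicate order, Ddx18 measured 9.76, 12, 14.7 and 16.2 CPM in lung DT and 33.9, 30.5, 29.2 and 30.3 CPM in lung PBS, with 29.1, 27.1, 27.6 and 38.5 CPM in LN DT and 44.6, 59.5, 56.5 and 47.3 CPM in LN PBS. Ddx18, an RNA helicase of large-subunit assembly, was lower in every DT library than in every PBS library of the same organ, and its averaged log2 fold change was -0.999 ± 0.19 (SE; adjusted p = 0.0138). Rrp15 had 7.03, 8.27, 12.9 and 6.81 CPM in lung DT libraries 1 to 4 and 31.2, 19.7, 18.9 and 41.3 CPM in lung PBS libraries, against 23.5, 20.7, 29 and 36.5 CPM in LN DT and 42.6, 50.6, 56.8 and 51.1 CPM in LN PBS libraries. Rrp15, whose yeast counterpart acts in large-subunit maturation, was lower in the same sense, at -1.27 ± 0.24 (SE; adjusted p = 0.0138). Lyar, a nucleolar protein, fell (-0.82 ± 0.22, adjusted p = 0.0491), and Mdn1, the AAA ATPase of large-subunit maturation, rose (0.96 ± 0.25, adjusted p = 0.0443). Of 27 small-subunit and snoRNP genes, Rcl1 was lower (-0.98 ± 0.27, adjusted p = 0.0481).

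Of 11 polyamine genes, Eif5a was lower; it encodes the translation factor that carries hypusine, a residue made from spermidine. In replicate order, Eif5a measured 477, 564, 675 and 665 CPM in lung DT and 1254, 1192, 1346 and 1062 CPM in lung PBS, with 472, 573, 615 and 1172 CPM in LN DT and 951, 1258, 1378 and 1265 CPM in LN PBS. In lung the DT and PBS libraries did not overlap, in LN they did, with LN DT 4 among the LN PBS libraries. The averaged log2 fold change was -0.90 ± 0.19 (SE; adjusted p = 0.0213). The calls of Ddx18 and Rrp15 were each lost in 1 of 24 alternatives, that of Eif5a in 7, and those of Rcl1, Mdn1 and Lyar in 14, 15 and 17. Leaving out any of 12, 12 and 13 of the 16 libraries singly ended the calls of Rcl1, Mdn1 and Lyar, with adjusted p values of at most 0.108, 0.105 and 0.112. With the mitochondrial share in the model Mdn1 stood at -0.014 and Eif5a at -0.32. The other lists (MYC network, RNA polymerase I, nutrients and iron, nucleotide synthesis, eIF4F and mTORC1) had 0 genes called on average.

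Within single organs, genes at an unadjusted p under 0.05 were counted in every pathway list. Over all 13940 genes tested the shares were 7.06% lower and 7.66% higher in lung DT and 3.52% lower and 8.29% higher in LN DT. In lung, 25 of the 140 tested pathway genes were lower and 4 higher in lung DT. Of the 27 small-subunit and snoRNP genes, 8 were lower and 0 higher. Of the 24 large-subunit genes, 8 were lower and 1 higher. Of the 15 nucleotide synthesis genes, 5 were lower and 0 higher. None of the 14 RNA polymerase I genes reached this p in lung. The polyamine list (11 genes) and the eIF4F and mTORC1 list (19 genes) each had 1 lower and 0 higher. The nutrient and iron list (18 genes) had 1 lower and 2 higher, and the 12 tested MYC network genes had 1 lower and 1 higher. In LN, 6 of the 140 were lower and 8 higher in LN DT, with at most 2 in either direction in any list. The genes of smallest p in each list follow with the log2 fold change of DT over PBS ± SE. None of them passed the test after adjustment over all genes.

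In the small-subunit list these were Utp3 (-0.63 ± 0.23, adjusted p = 0.285) and Imp3 (-0.65 ± 0.26, adjusted p = 0.327) in LN. In lung they were Wdr75 (-1.32 ± 0.37, adjusted p = 0.15) and Rcl1 (-1.22 ± 0.38, adjusted p = 0.179). In the large-subunit list they were Mdn1 (1.13 ± 0.36, adjusted p = 0.228) and Ddx18 (-0.76 ± 0.26, adjusted p = 0.262) in LN. In lung they were Rrp15 (-1.67 ± 0.34, adjusted p = 0.068) and Ddx18 (-1.23 ± 0.27, adjusted p = 0.0755). Among RNA polymerase I genes they were Taf1d (0.82 ± 0.34, adjusted p = 0.352) and Twistnb (-0.66 ± 0.31, adjusted p = 0.419) in LN. In lung they were Taf1c (1.00 ± 0.55, adjusted p = 0.412) and Taf1d (0.57 ± 0.34, adjusted p = 0.446). Taf1c and Taf1d belong to the selectivity factor that recruits the polymerase to ribosomal DNA.

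Among polyamine genes the smallest p values were those of Eif5a (-0.78 ± 0.27, adjusted p = 0.261) and Sat1, which acetylates spermidine and spermine (1.05 ± 0.47, adjusted p = 0.397), in LN. The same genes led in lung, Eif5a (-1.03 ± 0.27, adjusted p = 0.122) and Sat1 (0.91 ± 0.47, adjusted p = 0.38). Among nutrient and iron genes they were Ireb2, an RNA-binding sensor of iron (0.93 ± 0.38, adjusted p = 0.35), and the amino acid transporter Slc38a1 (-0.47 ± 0.24, adjusted p = 0.46) in LN. In lung they were the glucose transporter Slc2a3 (-1.36 ± 0.41, adjusted p = 0.177) and the arginine transporter Slc7a1 (0.66 ± 0.30, adjusted p = 0.317).

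Among nucleotide synthesis genes the leading ones were the purine enzymes Pfas (1.41 ± 0.61, adjusted p = 0.375) and Impdh2 (-0.41 ± 0.26, adjusted p = 0.569) in LN. In lung they were the pyrimidine enzyme Umps (-1.30 ± 0.33, adjusted p = 0.11) and the purine enzyme Adsl (-0.88 ± 0.31, adjusted p = 0.219). In the eIF4F and mTORC1 list they were the helicase Eif4a2 (0.55 ± 0.26, adjusted p = 0.416) and its cofactor Eif4b (-0.59 ± 0.29, adjusted p = 0.433) in LN. The lung pair was Eif4g2 (-0.67 ± 0.30, adjusted p = 0.313) and Eif4b (-0.43 ± 0.29, adjusted p = 0.505). The LN values of Taf1d, Sat1, Ireb2, Pfas and Eif4a2 and the lung values of Taf1d, Sat1 and Eif4b turned sign when each library's mitochondrial share was in the model.

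Some of these values rested on 1 library. Without LN DT replicate 1 the LN values were 0.056 for Sat1, 0.32 for Ireb2, 0.38 for Pfas, 0.32 for Eif4a2 and 0.71 for Mdn1. Without LN DT replicate 4 they were -0.92 for Eif4b and -0.72 for Slc38a1, and without LN PBS replicate 2 that of Impdh2 was -0.27. In lung, without lung DT replicate 1, Sat1 was at 0.54 and Eif4b at -0.65. Without lung DT replicate 2 Taf1c was at 0.61 and Slc7a1 at 0.41, without lung DT replicate 3 Eif4b was at -0.26, and without lung PBS replicate 2 Taf1d was at 0.34. Single libraries left out also brought calls: Eif5a in LN without LN DT replicate 4 (-1.13), and in lung Umps without lung DT replicate 1 (-1.67), Rrp15 without lung DT replicate 3 (-1.92), and Ddx18 (-1.41) and Slc2a3 (-2.00) without lung DT replicate 4.

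For DT within single organs, the MYC network genes of smallest p were Max and Mxd3. Max had a log2 fold change of DT over PBS of 1.35 ± 0.59 (SE; adjusted p = 0.386) in LN and -1.90 ± 0.60 (SE; adjusted p = 0.181) in lung, where all lung DT libraries were below all lung PBS libraries. Mxd3, another MAX partner, had 1.80 ± 0.79 (SE; adjusted p = 0.383) in LN and 1.74 ± 0.79 (SE; adjusted p = 0.317) in lung, with overlapping libraries in both. Its lung value was 0.77 without lung DT replicate 1. That of Max in lung was -2.73 and called without lung DT replicate 4. With the mitochondrial share in the model Max was at 2.25 in LN and -0.97 in lung, and Mxd3 at 0.92 in LN and 0.88 in lung.

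Levels of different genes were compared per kilobase of exon, as mean CPM per kilobase. The length was the union of the exons of all annotated transcripts, so these ranks depend on the annotation. Ncl, with a union of 10188 bases, averaged 418 CPM in LN PBS and ranked 7 there. Npm1, with 2665 bases, averaged 355 CPM in LN PBS. Slc3a2 ranked first of the 31 in lung DT (126 ± 18) and lung PBS (158 ± 22.7). Npm1 ranked first in LN DT (107 ± 16.1) and LN PBS (133 ± 28.5), and Slc3a2 had rank 5 in LN DT (52 ± 11.5) and rank 2 in LN PBS (76.4 ± 8.99). Myc stood at 20.9 ± 20.4 in lung DT, 16.2 ± 6.2 in lung PBS, 48.7 ± 7.59 in LN DT and 67.2 ± 15 in LN PBS, which was ranks 9, 14, 6 and 4 of the 31. Tfrc ranked 10, 18, 21 and 29 in the same order of groups, and Eif4a1 ranked 4, 4, 4 and 9. The scarcest were Rrp12 in lung DT (0.386 ± 0.295) and lung PBS (0.92 ± 0.62), and Slc7a5 in LN DT (0.551 ± 0.299) and LN PBS (1.27 ± 0.843).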

How the data were processed

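RNA-seq counts per gene were analysed for 16 NK cell libraries prepared from small numbers of sorted cells with a Smart-seq2-based method, per the labels. The authors deposited raw counts; HISAT2, HTSeq and GRCm38 are named in the submitters' processing notes, while versions, the strand setting and the handling of shared reads were not given in the sources used here. Reads from overlapping genes on opposite strands therefore cannot be told apart. The members and gene lists were chosen with earlier results of these data known, and by the naming rule all 31 members may be named, with tests for the 3 of smallest p and all called members of each comparison.

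Genes were filtered with filterByExpr (minimum count 10, minimum total 15), scaled with TMM factors, and modelled by robust quasi-likelihood in edgeR 4.0.16 under R 4.3.3, as 4 group means over all 16 libraries. This left 12 residual degrees of freedom, and the common coefficient of biological variation came to 0.621. All 6 contrasts were tested two-sided with Benjamini-Hochberg adjustment over 13940 genes. Of 142 pathway genes 2, Mycn and Mycl, were not tested. The procedure was also run on simulated counts, drawn independently for each library. These were not given deviations shared between libraries or the mitochondrial difference between DT and PBS. That run therefore does not vouch for the calls given here. The design text states biological replicates, and p-values take each library as an animal. Alternatives used DESeq2 1.42.0 and limma 3.58.1. Sequences and coordinates are from RefSeq GRCm38.p6.

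Whether replicate numbers pair the libraries was checked from the correlation of deviations from group means over genes. For lung DT and LN DT the same-numbered correlations were 0.412, 0.194, 0.230 and 0.184, so the block is given for that comparison. Libraries of different number reached 0.229 (lung DT 3 with LN DT 2) and 0.181 (lung DT 2 with LN DT 3). Lung DT 2 and lung PBS 2, from mice of different treatment, reached 0.207. The correlations therefore do not establish a shared animal, and the labels do not state one. In the other group pairs at least 1 same-numbered correlation was 0.1 or less.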

Additional observations from a re-analysis of the deposited data

Results flagged for a closer look

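In groups of 4, the highest or the lowest library was set apart from the other 3 by Dixon's criterion, which chance meets in about 1 of 20 groups. This was so for 12 of 124 gene-by-group sets of the 31 genes, and 6 of the 12 lay in DT libraries numbered 1. Lung DT 1 was lowest in Rrp9 (0.717 CPM, the others 26.9 to 29.4), Bop1 (4.30 CPM, the others 44.9 to 65.7) and Cad, the pyrimidine synthesis enzyme (0 CPM, the others 10.9 to 19.1). It was highest in Gnl3, the nucleolar GTPase nucleostemin (175 CPM, the others 48.9 to 57.2). LN DT 1 was lowest in Bop1 (12.3 CPM, the others 67.6 to 80.8) and highest in Wdr12, a partner of Bop1 (87.4 CPM, the others 40.1 to 45.2).

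The other 6 lay in other libraries. Nop16 was lowest in lung PBS 2 (29.97 CPM, the others 36.7 to 38.2) and Srm was lowest in lung PBS 4 (2.36 CPM, the others 19.9 to 29.99). Fbl, the methyltransferase of box C/D snoRNPs, was highest in LN DT 4 (20.3 CPM, the others 12.4 to 13.1). In LN PBS 1, Ncl (318 CPM, the others 442 to 460.4) and Tfrc (0.946 CPM, the others 14.1 to 23.6) were lowest. Utp20 was highest in LN PBS 2 (26.9 CPM, the others 18.3 to 18.9). Outside the module, the mitochondrial share was lowest in LN DT 4 (1.24% of counts, the others 4.01% to 4.93%), and Malat1 was lowest in LN PBS 3 (2197 CPM, the others 2733 to 2841).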

How the results depend on the processing

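Of 2245 alternative values of 92 single results, 2008 kept their direction and side of the threshold, 161 lost the call, 62 gained it and 14 turned sign. Many of these results were not called at first, and those counted as kept when they stayed uncalled with the same sign. Only called results could lose a call, so the number kept does not measure how often calls held. Numbers of the 31 genes called moved as follows. The numbers called over all genes moved too, and their ranges are given near the end of this paragraph. Where this report gives no share of all genes called in the same setting, a count of the 31 cannot be set against its background. With no filter on low counts, 3 were called between lung and LN in PBS mice. DESeq2's Wald test called 1 for DT on average. Limma-voom with sample quality weights called 10 in LN, where 14.9% of all genes were higher and 11.9% were lower. It called 12 on average, where 14% were higher and 13.1% were lower. Between organs it called 9 in PBS mice and 6 in DT mice. The replicate block by treatment gave 5 between organs in DT mice; the replicate block by number changed no count by over 1.5 times. Without both DT libraries numbered 1, 1 was called in lung, 4 on average and 7 between organs in DT mice. Leaving out single libraries gave 0 to 0 for DT in LN and in lung, 0 to 3 on average, 2 to 5 between organs in PBS mice (2 without lung PBS replicate 2, 3 or 4 or LN PBS replicate 3) and 1 to 6 in DT mice (6 without lung DT replicate 1, 1 without lung DT replicate 3 or LN DT replicate 1). With each library's mitochondrial share in the model, the sign turned for DT in LN in Taf1d (-0.086), Sat1 (-0.52), Ireb2 (-0.069), Pfas (-0.25) and Eif4a2 (-0.037), in lung in Taf1d (-0.13), Sat1 (-0.34) and Eif4b (0.20), and on average in Mdn1 (-0.014). The Myc difference between DT effects ranged from -1.11 to 0.13 as single libraries were left out (0.13 without lung DT replicate 1) and turned to 0.21 without both DT libraries numbered 1. Slc7a5 between organs in PBS mice ranged from -0.16 (without LN PBS replicate 4) to 0.62 (without LN PBS replicate 2) and was also below 0 without lung PBS replicate 2 or LN PBS replicate 3. The cause of these changes was not tested. Over all genes, calls for DT ranged from 0 to 3736 in LN, from 1 to 474 in lung and from 0 to 3781 on average, and between organs from 268 to 2296 in PBS mice and from 471 to 1804 in DT mice. Slc7a5 alone of the 31 could not be tested where a mean of at least 5 CPM was required.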
